A study of Mus musculus with 16 samples.

Results

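The effect of ethanol drinking on its own was examined by comparing the brain transcriptomes of 4 Water-Ethanol mice, marked by their initials in the plots, with those of 4 Water-Water (WW) mice. All genes that passed a filter on low counts were included, which left 15323 of the 24062 genes in the deposited count table. The series held 16 female mice of the inbred strain C57BL/6J, in adolescence, in 4 groups of 4, and 1 whole brain with its cerebellum gave 1 RNA-seq library per mouse. All brains were taken on postnatal day (PND) 45. WW mice drank tap water throughout. Water-Ethanol mice also drank tap water, but during the last 4 days a tube of 20% v/v ethanol was offered in the dark phase (drinking in the dark, DID), for 2 h on each of the first 3 days and for 4 h on the last, and tissue was collected after that last session. The Nicotine-Water (NW) group drank a solution with 200 µg/ml nicotine in place of water for 22 h per day, and the Nicotine-Ethanol (NE) mice had nicotine and the same ethanol sessions. These 8 mice share no animal with the Water-Ethanol and WW groups and were used only to see the same ethanol contrast in other mice. The paper reported higher ethanol intake and blood ethanol in NE than in Water-Ethanol mice in the last session, so the dose was not matched. Nicotine bottles were removed during the ethanol sessions, and the paper names nicotine withdrawal as a possible part of the nicotine results. All mice were housed singly, no genetic change was labeled for any group, and a whole brain averages over all regions and cell types.

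Ethanol acts on many membrane proteins of neurons and glia, among them the NMDA-type glutamate receptors, which it inhibits, and GABA-A and glycine receptors, which it can enhance. It crosses the blood-brain barrier freely and is broken down mainly in the liver, with catalase, CYP2E1 and aldehyde dehydrogenases contributing in the brain. Drinking in the dark gives C57BL/6J mice short bouts of high intake, and tissue taken after a session follows both that bout and those of the earlier days.

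Total counts per mouse ran from 27378609 to 31121337 in WW and from 27577575 to 29566829 in Water-Ethanol. No libraries were identical, and log2 CPM correlated across genes between any pair of the 8 mice with r from 0.991 to 0.996. WW replicate 4 stood apart. The score of 16 cerebellar granule neuron genes (the mean of log2 CPM, which scales counts to the library total, centered on the 8 mice) was -0.94 in that mouse against 0.021 to 0.19 in the other WW mice and 0.031 to 0.20 in Water-Ethanol, although all brains were labeled as including the cerebellum. Beside the results it moved, values without it are given. A trend with base composition also separated the groups. The slope of log2 counts against transcript GC content, per 10 percentage points of GC, lay between -0.049 and -0.0020 in WW and between 0.0020 and 0.044 in Water-Ethanol. The pre-ribosomal RNA Rn45s took 0.274% to 0.467% of counts in WW and 0.373% to 0.617% in Water-Ethanol.

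Ethanol drinking went with small changes spread over many genes. By edgeR's quasi-likelihood test, with a threshold of 0.05 on the Benjamini-Hochberg adjusted p-value, 70 of 15323 genes (0.457%) were differentially expressed genes (DEG): 42 rose in Water-Ethanol (0.274%) and 28 fell (0.183%). The median logarithmic (base 2) fold change (LFC) was 0.34 among DEG that rose, a gain of 26.5%, and -0.27 among DEG that fell, a loss of 17.2%. All 70 DEG, each with an exact two-sided permutation p of 0.0286, the smallest that 70 arrangements of 8 mice can give, had no overlap between the 4 Water-Ethanol and the 4 WW mice, as had 5.45% of all genes tested toward higher and 5.4% toward lower values. The DEG were chosen by their p-values in these same 8 mice, so this separation is no separate evidence. At an unadjusted p under 0.05, 1579 genes were higher (10.3%) and 1386 lower (9.05%).

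The DEG lay close to the threshold, with adjusted p-values from 0.0357 to 0.0494, and their number depended on single mice. Without WW replicate 4, 797 genes passed, 458 higher (2.97%) and 339 lower (2.2%), and all 70 DEG were among them. Without WW replicate 1, 84 passed, of which 43 were DEG. Leaving out WW replicate 2 or 3 or Water-Ethanol replicate 1 or 3 left 0, and leaving out Water-Ethanol replicate 2 or 4 left 1 each, Serinc2 and Kcnv1. At unadjusted p under 0.05 these fits still held between 2101 and 3137 genes. With limma on the deposited FPKM values, on the log2(FPKM + 1) scale, 0 passed and 2629 had an unadjusted p under 0.05, whereas DESeq2 on the counts called 606, of which 67 were DEG. No DEG changed direction in any of these fits. With the GC trend of each mouse removed, 35 of the 70 still passed, 24 that rose and 11 that fell. With upper-quartile factors the split of DEG turned from 60% higher to 43.8% of 121.

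**Figure D1:**
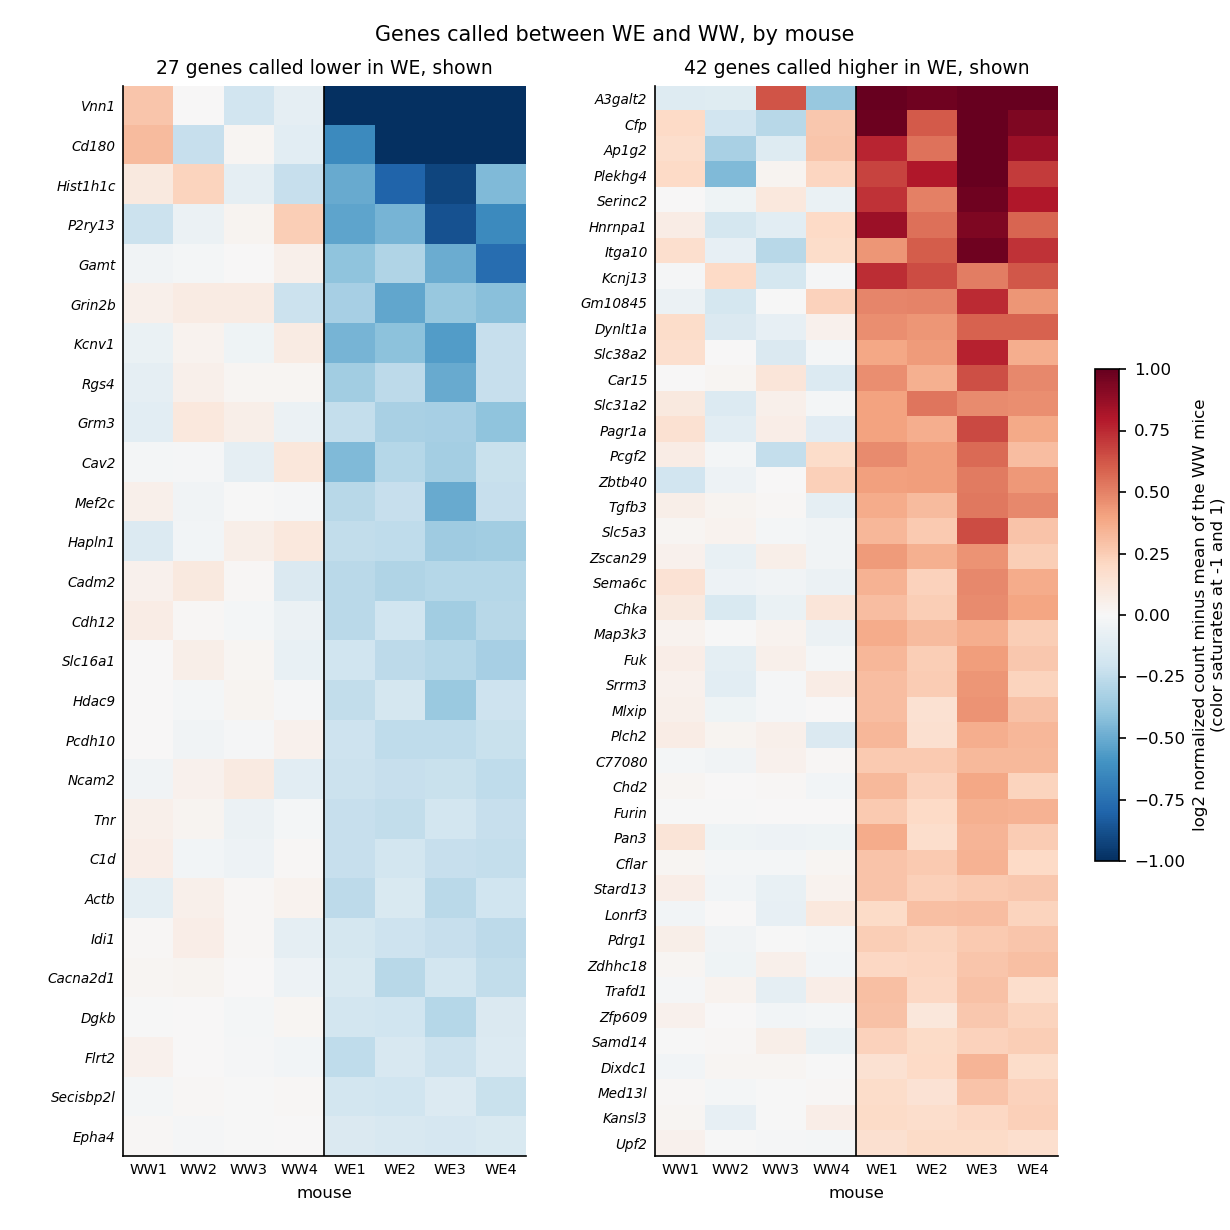
Each row is a DEG, with 1 that fell left out, and each column a mouse, with 4 WW mice left of the line and 4 Water-Ethanol mice right of it. Color gives the log2 normalized count minus the mean of the WW mice, saturating at -1 and 1. Most changes are pale, under 1 log2 unit, and Water-Ethanol replicate 3 is the highest Water-Ethanol mouse in many of the genes that rose.

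Of the DEG that fell, 4 encode transmitter receptors or ion channels. Grin2b, which encodes the GluN2B subunit of the NMDA receptor (chr6:135729805-136173511, minus strand, GRCm38), had 3625, 3709, 3712 and 3023 normalized counts in WW and 2792, 2445, 2699 and 2621 in Water-Ethanol. The highest Water-Ethanol mouse was below the lowest WW mouse, and the loss was 25%, LFC -0.41 ± 0.0644 (SE, adjusted p = 0.0357). Without WW replicate 4, the lowest of the WW mice, the LFC was -0.48. Grm3, a group II metabotropic glutamate receptor of neurons and astrocytes, went from 1925, 2224, 2154 and 1982 in WW to 1752, 1649, 1646 and 1563 in Water-Ethanol, LFC -0.33 ± 0.0529 (SE, adjusted p = 0.0357). Kcnv1 (chr15:45106284-45114934, minus strand), a silent subunit that modifies Kv2 potassium channels and is found mostly in the forebrain, went from 2636, 2826, 2678 and 2919 normalized counts in WW to 2003, 2076, 1876 and 2357 in Water-Ethanol, LFC -0.41 ± 0.0621 (SE, adjusted p = 0.0357). Cacna2d1, the alpha2delta-1 subunit that carries calcium channels to the membrane and binds gabapentin, fell with LFC -0.21 ± 0.0373 (SE, adjusted p = 0.0424). Signaling proteins acting behind such receptors fell too. Rgs4, which shortens G-protein signaling and is abundant in cortex, had 12849.9, 14156, 13836 and 13808 normalized counts in WW and 10732, 11406, 9611 and 11617 in Water-Ethanol, LFC -0.33 ± 0.056 (SE, adjusted p = 0.0424). Dgkb, a diacylglycerol kinase rich in striatum, had LFC -0.20 (adjusted p = 0.045).

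Adhesion molecules and matrix proteins were also among the DEG that fell, grouped here by known role and not by a test. Pcdh10, a delta-2 protocadherin that guides axons and prunes excitatory synapses (chr3:45378398-45434579, plus strand), had 8009, 7829, 7932 and 8271 normalized counts in WW against 6949, 6719, 6723 and 6875 in Water-Ethanol. It had the smallest p-value of the genes that fell, LFC -0.23 ± 0.0328 (SE, adjusted p = 0.0357), with a loss of 14.9% and a spread between mice of one group that was small beside it. Cdh12, a brain cadherin, fell from 763, 730.4, 715 and 697 to 603, 632, 571 and 598, LFC -0.27 (adjusted p = 0.0471). Cadm2, a synaptic cell adhesion molecule, had LFC -0.29 (adjusted p = 0.0357), Ncam2 -0.23 (adjusted p = 0.0471), the fibronectin-leucine-rich adhesion protein Flrt2 -0.19 (adjusted p = 0.0494) and the ephrin receptor Epha4, which repels axons and acts at glia-spine contacts, -0.16 (adjusted p = 0.0475). Tnr, or tenascin-R, is a matrix glycoprotein made by the oligodendrocyte lineage and interneurons (chr1:159523769-159924922, plus strand), and it had 3619, 3542, 3339 and 3445 normalized counts in WW and 2969.6, 2936, 3068 and 2968 in Water-Ethanol, LFC -0.22 ± 0.0362 (SE, adjusted p = 0.0357). Hapln1, the link protein that fixes proteoglycans to hyaluronan in perineuronal nets, also fell, LFC -0.30 ± 0.0579 (SE, adjusted p = 0.0471). Both belong to a list of nets and brain matrix, in which, of 31 genes tested, 0 rose and 2 fell, and the median LFC was -0.012 (-0.063 without WW replicate 4), against 0.183% of all genes that fell. Here and below, lists were chosen with earlier results of these data known, so shares of list members are descriptions and no independent evidence.

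Genes of microglia and of metabolism included the largest losses. Cd180, a Toll-like receptor homolog of microglia and B cells, and P2ry13, an ADP receptor that marks homeostatic microglia, are both microglial genes that fell, and their RefSeq promoters (250 bases before the start site that matches the count table, GRCm38.p6, 5′ to 3′) are shown for comparison with those of the genes that rose below. The Cd180 window is chr13:102693308-102693557 on the plus strand and the P2ry13 window is chr3:59210883-59211132 on the minus strand. Capitals mark GGAAGT on either strand, the core of sites for PU.1 and other ETS family factors, which 22.2% of 11116 matched promoters hold.
Cd180 promoter: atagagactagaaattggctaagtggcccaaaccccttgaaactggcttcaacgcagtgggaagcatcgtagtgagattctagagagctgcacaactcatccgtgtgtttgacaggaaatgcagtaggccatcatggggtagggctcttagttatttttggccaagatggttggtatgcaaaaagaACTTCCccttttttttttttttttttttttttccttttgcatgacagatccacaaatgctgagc
P2ry13 promoter: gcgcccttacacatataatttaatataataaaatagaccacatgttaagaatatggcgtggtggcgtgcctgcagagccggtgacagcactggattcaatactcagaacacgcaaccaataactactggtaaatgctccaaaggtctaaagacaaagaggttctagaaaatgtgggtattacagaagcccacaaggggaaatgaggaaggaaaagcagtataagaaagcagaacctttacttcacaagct

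The Cd180 window held that motif and had a GC content of 42.4%, and the P2ry13 window held none and had 41.6%, against a median of 60% over all matched promoters. Cd180 had 74.4, 50.9, 60.5 and 55.7 normalized counts in WW and 38.4, 21.6, 17.1 and 27.2 in Water-Ethanol, LFC -1.20 ± 0.225 (SE, adjusted p = 0.0471), a loss of 56.6%. P2ry13 had 249.8, 278, 296 and 344 in WW and 202, 211, 158 and 187 in Water-Ethanol, LFC -0.62 ± 0.112 (SE, adjusted p = 0.045). The highest P2ry13 count was that of WW replicate 4, and without that mouse its LFC was -0.54. Vnn1, a pantetheinase that releases cysteamine, showed the largest LFC, but from 15.9, 13.2, 11.5 and 12.4 to 4.92, 3.92, 2.02 and 3.13 normalized counts, LFC -1.88 ± 0.331 (SE, adjusted p = 0.0424), so that each value rests on few reads. Gamt, which makes the last step of creatine synthesis, fell from 296, 298, 302 and 313 to 229, 245, 215 and 179, LFC -0.48 ± 0.09 (SE, adjusted p = 0.0471). Slc16a1, the monocarboxylate transporter MCT1 of endothelial cells and oligodendrocytes, fell by 17.2%, LFC -0.27 (adjusted p = 0.0357), and Idi1, an isomerase of the mevalonate pathway to cholesterol, by 14.1%, LFC -0.22 (adjusted p = 0.0471).

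Nuclear and structural proteins made up the rest of the genes that fell. Mef2c, a transcription factor that restrains excitatory synapse number, had 15969.9, 15064, 15449 and 15348 normalized counts in WW and 12775, 13193, 10888 and 13161 in Water-Ethanol, LFC -0.31 ± 0.0555 (SE, adjusted p = 0.045). Hdac9, a class IIa deacetylase that binds MEF2 factors, had LFC -0.25 (adjusted p = 0.0452). C1d, a cofactor of the nuclear exosome, had LFC -0.22 (adjusted p = 0.0494). The linker histone gene Hist1h1c had LFC -0.66 (adjusted p = 0.049) and beta-actin, Actb, -0.22 (adjusted p = 0.0471), and since both have close relatives or processed copies in the genome their counts are uncertain. Caveolin-2, Cav2, had LFC -0.32 (adjusted p = 0.0424) and Secisbp2l, which has a selenocysteine insertion domain, -0.18 (adjusted p = 0.0424).

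Among the genes that rose, several were transporters and channels of barrier and solute handling. Slc5a3, the sodium/myo-inositol cotransporter (chr16:92058322-92087473, plus strand), and Slc38a2, the system A amino acid transporter SNAT2 (chr15:96687392-96699698, minus strand), take up organic osmolytes and are known targets of NFAT5, a transcription factor of the response to hypertonicity. Their RefSeq promoters (GRCm38.p6, 250 bases before the start site, 5′ to 3′) are chr16:92058072-92058321 on the plus strand and chr15:96699729-96699978 on the minus strand. The letters TGGAAA, the core of NFAT family sites, were searched on both strands and would be in capitals, and no motif was found.
Slc5a3 promoter: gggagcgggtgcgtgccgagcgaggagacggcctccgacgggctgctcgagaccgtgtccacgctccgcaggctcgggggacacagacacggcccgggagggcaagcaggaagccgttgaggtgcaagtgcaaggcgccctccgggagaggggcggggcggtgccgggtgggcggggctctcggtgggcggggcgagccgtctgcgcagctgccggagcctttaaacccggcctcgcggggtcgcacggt
Slc38a2 promoter: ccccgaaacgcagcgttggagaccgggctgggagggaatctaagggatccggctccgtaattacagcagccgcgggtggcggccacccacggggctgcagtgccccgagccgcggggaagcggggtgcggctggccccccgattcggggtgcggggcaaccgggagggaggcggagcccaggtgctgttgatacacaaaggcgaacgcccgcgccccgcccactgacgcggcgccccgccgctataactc

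These windows had GC contents of 74.8% and 72%, and these letters were not in either, while 14.9% of all matched promoters hold them, as do 5 of the 34 matched promoters of genes that rose. Slc5a3 had 2591, 2628, 2529 and 2504 normalized counts in WW and 3219, 3064, 4023 and 3124 in Water-Ethanol, LFC 0.39 ± 0.0729 (SE, adjusted p = 0.0471). Slc38a2 had 9434, 8426, 7600.5 and 8309 in WW and 10988, 11292, 14353 and 10839 in Water-Ethanol, LFC 0.49 ± 0.0868 (SE, adjusted p = 0.0424). Water-Ethanol replicate 3 was the highest mouse for both, and without it the LFC were 0.29 and 0.39. Slc5a3 shares exons with Mrps6, so part of its reads could come from that gene. Kcnj13, the potassium channel Kir7.1 of choroid plexus epithelium (chr1:87386284-87394729, minus strand), had 189, 219.6, 169 and 189.8 normalized counts in WW and 319, 301, 272 and 295 in Water-Ethanol, LFC 0.63 ± 0.089 (SE, adjusted p = 0.0357). The copper transporter Slc31a2 had LFC 0.47 (adjusted p = 0.0357) and the membrane-bound carbonic anhydrase Car15 0.49 (adjusted p = 0.0424). Serinc2, of a family named for carrying serine into membrane lipids (chr4:130253497-130275586, minus strand), had 168, 163, 180.5 and 159.8 in WW and 277, 238, 329 and 293 in Water-Ethanol, LFC 0.76 ± 0.1 (SE, adjusted p = 0.0357), the smallest p-value of all genes. Its relatives were near or below 0: Serinc1 had LFC -0.11 (adjusted p = 0.12), Serinc3 -0.0020 (adjusted p = 0.987) and Serinc5 -0.11 (adjusted p = 0.241).

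A ligand and its processing enzyme rose together. Tgfb3, one of the TGF-beta ligands (chr12:86056743-86079041, minus strand), had 487, 476, 471 and 439 normalized counts in WW and 607, 582, 674 and 653 in Water-Ethanol, LFC 0.42 ± 0.0613 (SE, adjusted p = 0.0357). Furin, the protease that cleaves TGF-beta and other precursors, had 1143, 1141, 1151 and 1149 in WW and 1371, 1312, 1469.8 and 1458 in Water-Ethanol, LFC 0.29 ± 0.0453 (SE, adjusted p = 0.0357). All Water-Ethanol mice were above all WW mice for both. The wider TGF-beta and BMP list did not follow one direction: of 33 genes tested, 2 rose and 0 fell, against 0.274% and 0.183% of all genes. At an unadjusted p under 0.05, 5 were higher and 5 lower, against 10.3% and 9.05% of all genes, and the median LFC was 0.026. The inhibitor of differentiation Id2 had LFC -0.20 (adjusted p = 0.068), the BMP antagonist follistatin (Fst) -0.45 (adjusted p = 0.116), the receptor Bmpr1b -0.15 (adjusted p = 0.115) and the latent TGF-beta binding protein Ltbp3 0.26 (adjusted p = 0.103).

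Among the DEG that rose were also regulators of chromatin, transcription and RNA, again grouped by known role only. Chd2, a chromatin remodeler, had 2503, 2479.6, 2492 and 2422 normalized counts in WW and 3094, 2904, 3236 and 2886 in Water-Ethanol, LFC 0.29 ± 0.0418 (SE, adjusted p = 0.0357). Med13l, of the kinase module of Mediator, had 3834, 3768, 3810.3 and 3840.3 in WW and 4342, 4223, 4655 and 4470.1 in Water-Ethanol, LFC 0.21 ± 0.0368 (SE, adjusted p = 0.0424). Kansl3, of a histone acetyltransferase complex, had LFC 0.20 (adjusted p = 0.0471), the Polycomb protein Pcgf2 0.44 (adjusted p = 0.0494), and Pagr1a, a partner of histone H3 lysine methyltransferases, 0.45 (adjusted p = 0.0424). The zinc finger genes Zbtb40, Zscan29 and Zfp609 had LFC 0.44 (adjusted p = 0.0424), 0.37 (adjusted p = 0.0424) and 0.22 (adjusted p = 0.0471), and Mlxip, the glucose-sensing factor MondoA, 0.30 (adjusted p = 0.0471). In RNA handling, Upf2 of nonsense-mediated decay had LFC 0.18 (adjusted p = 0.0471), Pan3 of the PAN2-PAN3 deadenylase 0.28 (adjusted p = 0.0494) and Srrm3, which promotes neuronal microexons, 0.31 (adjusted p = 0.045). Hnrnpa1, a splicing repressor, had LFC 0.74 (adjusted p = 0.0357), but it shares exons with other gene models and has processed copies, so its counts are uncertain. Its deposited FPKM rose far less, from a mean of 76.1 in WW to 83.9 in Water-Ethanol.

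Signaling genes that rose included Map3k3, a kinase above the MAPK cascade, with 736, 716, 737 and 691 normalized counts in WW and 932, 897, 924 and 852 in Water-Ethanol, LFC 0.32 ± 0.048 (SE, adjusted p = 0.0357). Dixdc1, a DIX domain protein of Wnt signaling, had LFC 0.22 (adjusted p = 0.0471), the phospholipase Plch2 0.30 (adjusted p = 0.0471), the caspase-8 inhibitor Cflar 0.27 (adjusted p = 0.0357), and Trafd1, a brake on Toll-like receptor signaling, 0.24 (adjusted p = 0.0494). Regulators of small GTPases and surface proteins were Stard13 (0.26), Plekhg4 (0.80), the semaphorin Sema6c (0.36) and the collagen-binding integrin Itga10 (0.69). Cfp encodes properdin, which stabilizes the alternative complement convertase (chrX:20925535-20931524, minus strand), and it had 232, 177, 167 and 243 in WW and 399, 309.5, 513 and 385 in Water-Ethanol, LFC 0.98 ± 0.154 (SE, adjusted p = 0.0357). A3galt2, the enzyme of the glycolipid iGb3, showed the largest gain, from 15.9, 16, 26.9 and 13.4 to 66.9, 34.3, 52.4 and 40.7 normalized counts, LFC 1.41 ± 0.268 (SE, adjusted p = 0.0471). The remaining DEG that rose were choline kinase Chka (0.35), fucokinase Fuk (0.32), the palmitoyltransferase Zdhhc18 (0.25), the RING finger gene Lonrf3 (0.26), Pdrg1 (0.25), Samd14 (0.22), C77080 (0.29), Gm10845 (0.54), the adaptor subunit Ap1g2 (0.81) and the dynein light chain Dynlt1a (0.52). Of the DEG not yet given this caution, Ap1g2, Plekhg4, C77080, Dynlt1a, Chd2, Pcdh10 and Cadm2 share exons with a neighbor and are uncertain, since reads could be split and the use of strand in counting is unknown. For Dynlt1a the mean deposited FPKM rose less than the counts, from 9.88 in WW to 11.2 in Water-Ethanol.

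Gene lists for cell types were then read beside all genes tested, of which 49.4% lay below 0 with a median LFC of 0.0015. The counts of list members at an unadjusted p under 0.05 stand beside 10.3% of all genes higher and 9.05% lower. Since lists were chosen with earlier results of these data known, these comparisons describe the lists and test nothing. Brackets after a list median give its value without WW replicate 4. The median of 19 of 60 lists turned sign when 1 mouse was left out. Microglial genes lay below 0 without exception: 24 of 24, median LFC -0.22, with 14 lower at an unadjusted p under 0.05 against 9.05% of all genes, and 2 DEG, the Cd180 and P2ry13 described above. The list score was -0.024 to 0.31 in WW and -0.21 to -0.057 in Water-Ethanol, without overlap, and the summed normalized counts were 15992 to 20048 and 14965 to 16554. The highest score was that of WW replicate 4. Without that mouse the median was -0.14 with 4 genes lower at an adjusted p under 0.05, against 2.2% of all genes in that fit. In whole brain, fewer cells of a type and less RNA per cell cannot be told apart.

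LFC of single microglial genes were unequal. Fcrls, a microglial Fc receptor-like gene, had 509, 557, 673 and 636 normalized counts in WW and 432, 501, 462 and 424 in Water-Ethanol (LFC -0.39, adjusted p = 0.0698), and the secreted glycoprotein Olfml3 had 469.9, 506, 557 and 514 and 435, 395, 428 and 314 (LFC -0.38, adjusted p = 0.0808). Groups did not overlap for either, nor for the receptors Gpr34 (LFC -0.35, adjusted p = 0.0846) and P2ry12 (LFC -0.27, adjusted p = 0.108). The fractalkine receptor Cx3cr1 had LFC -0.26 (adjusted p = 0.113), the complement genes C1qa and C1qb -0.20 and -0.23, Tmem119 -0.20 and Csf1r -0.080. Of 13 genes of perivascular macrophages and blood leukocytes, 9 were below 0 (median -0.13 [-0.10]) and 1 was lower at an unadjusted p under 0.05, the macrophage mannose receptor Mrc1 with LFC -0.32 (adjusted p = 0.162). The list's DEG went the other way, since Cfp, described above, rose, and leaving out WW replicate 1, 2 or 3 moved this median to -0.046, -0.066 or -0.24.

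The oligodendrocyte lineage also lay low. Of 22 oligodendrocyte and myelin genes, 21 were below 0, median LFC -0.16 [-0.16], and 12 were lower at an unadjusted p under 0.05, but none passed adjustment with all 8 mice. Without WW replicate 4, 5 passed as lower, against 2.2% of all genes in that fit. Opalin, of the myelin membrane, had 476, 549, 585 and 525 normalized counts in WW and 439.7, 319, 428 and 372 in Water-Ethanol (LFC -0.45, adjusted p = 0.0574), and Ugt8a, which makes galactosylceramide, had 4429, 5430.4, 5314 and 4747 and 4019, 3849, 4380.1 and 3674 (LFC -0.32, adjusted p = 0.0572). The transcription factor Olig1 had LFC -0.25 (adjusted p = 0.0555), Cnp -0.26 (adjusted p = 0.0813), Mog -0.29 (adjusted p = 0.107) and Mbp -0.12 (adjusted p = 0.27). Their list scores overlapped, with -0.056 to 0.18 in WW and -0.17 to 0.0076 in Water-Ethanol, and WW replicate 1 was the lowest of the WW mice. Among 12 precursor genes, 6 were lower at an unadjusted p under 0.05, and the DEG was Tnr.

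Vascular cells were mixed. For 14 pericyte and smooth muscle genes the median LFC was -0.11 [-0.11], and scores did not overlap (0.019 to 0.083 in WW, -0.059 to -0.023 in Water-Ethanol). Pdgfrb, which marks pericytes, had LFC -0.16 (adjusted p = 0.0964), vitronectin (Vtn) -0.21 (adjusted p = 0.085) and Rgs5 -0.16 (adjusted p = 0.11). Among 22 endothelial genes 3 were higher and 6 lower at an unadjusted p under 0.05, the DEG was Slc16a1, and the median was -0.036 [-0.0051]. Astrocyte genes had a median of -0.047 [-0.071], with Slc1a2, the main glutamate transporter, at -0.14 (adjusted p = 0.12) and Gfap at -0.072 (adjusted p = 0.503). Of 20 choroid plexus genes only Kcnj13 was a DEG, and the carrier of thyroid hormone Ttr, an abundant gene of this tissue, had LFC 0.17 (adjusted p = 0.234). Choroid plexus scores overlapped, at -0.18 to 0.12 in WW and -0.070 to 0.085 in Water-Ethanol. No gene of 17 tested for ependyma and motile cilia passed an unadjusted p of 0.05.

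Neuronal lists were read by region. Cerebellar granule neuron genes had the highest median of any list with more than 1 gene tested, 0.23, and Purkinje neuron genes 0.13, and without WW replicate 4 these medians were -0.0035 and 0.0003, so that both rest on that mouse. Genes of the olfactory bulb and of newborn neurons had a median of -0.15 [-0.10], or -0.079 without Water-Ethanol replicate 3, with Sp8 at -0.48 (adjusted p = 0.105), and that mouse had the lowest score, -0.47. In cortical and hippocampal projection neurons 12 of 16 genes were below 0 (median -0.084 [-0.061]), among them the transcription factor Tbr1 (LFC -0.22, adjusted p = 0.0539), whose groups did not overlap. For interneurons the median was -0.10 [-0.10], with Gad2, which makes GABA, at -0.10 (adjusted p = 0.12), and for striatal medium spiny neurons -0.029 [0.0037], above 0 also without Water-Ethanol replicate 1.

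**Figure D2:**
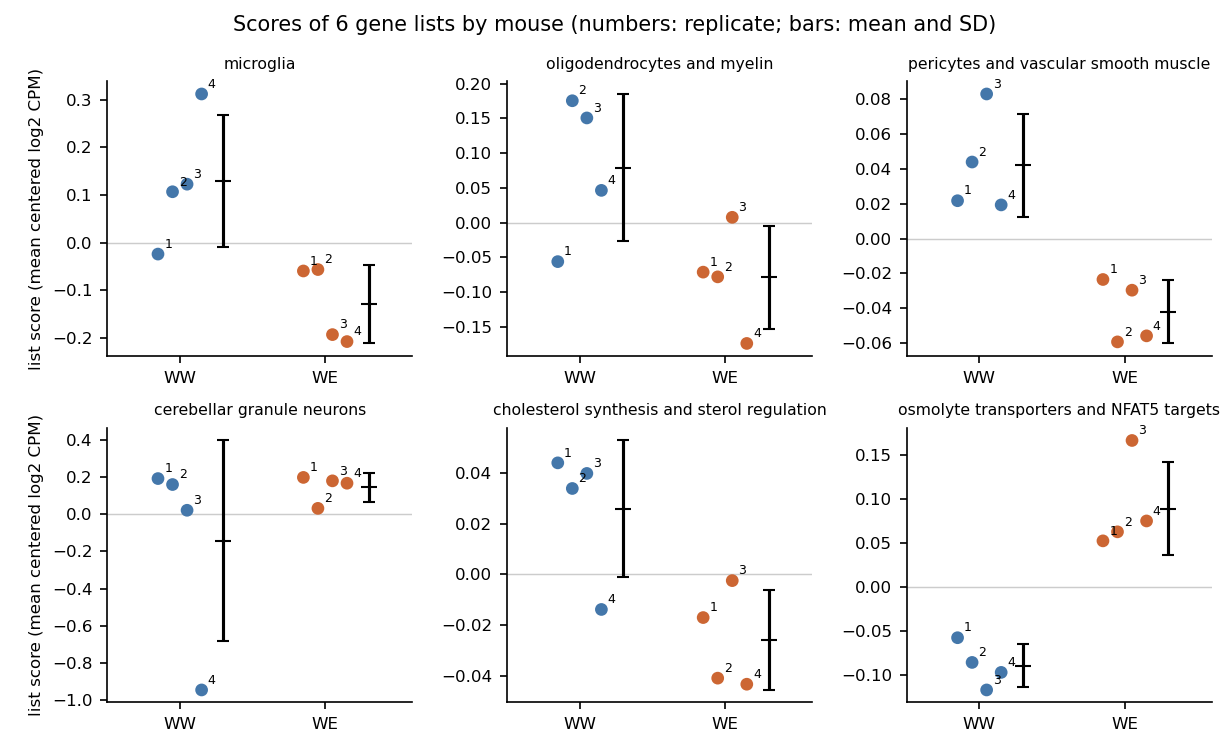
Scores of 6 gene lists, in mean centered log2 CPM, are plotted for each WW mouse (blue) and Water-Ethanol mouse (orange), numbered by replicate, with the mean and SD of 4 mice beside them. Of these 6, microglia, pericytes and osmolyte genes separate the groups, as do some lists not plotted, while for granule neurons WW replicate 4 alone lies near -0.94.

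Receptor families were read next. Of 7 NMDA receptor subunits, Grin2b fell and Grin2a had LFC -0.28 (adjusted p = 0.085) (-0.35 without WW replicate 4), while the obligatory subunit Grin1 had -0.020 (adjusted p = 0.825) and the median was -0.020 [-0.030]. AMPA and kainate receptor subunits had a median of -0.013 [-0.026] and no DEG. Of 10 metabotropic glutamate receptors, Grm3 fell and Grm5 had LFC -0.15 (adjusted p = 0.078) without overlap. For GABA-A and glycine receptors, 16 of 20 subunits lay below 0, median -0.087 [-0.067], and 6 were lower at an unadjusted p under 0.05. Without WW replicate 4, 4 were lower and 0 higher at an adjusted p under 0.05, against 2.2% and 2.97% of all genes. The groups did not overlap for Gabra4 (LFC -0.18, adjusted p = 0.103), Gabrg1 (-0.13, adjusted p = 0.117) and Gabrb1 (-0.14, adjusted p = 0.14). Gabrd, the delta subunit of extrasynaptic receptors in granule neurons, was the one higher at an unadjusted p under 0.05, 0.15 (adjusted p = 0.226), and had 0.085 without WW replicate 4. With the GC trend removed the list's median was -0.052.

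Cholinergic genes (median -0.035 [-0.011]), aminergic receptors (-0.0018 [0.013]) and opioid and endocannabinoid genes (0.0094 [0.024]) held no DEG. The serotonin receptor Htr2a had 621, 567, 583 and 589 normalized counts in WW and 463, 482, 478 and 546 in Water-Ethanol (LFC -0.26, adjusted p = 0.0739). Of 56 potassium channel genes, 11 were lower and 5 higher at an unadjusted p under 0.05, against 9.05% and 10.3% of all genes. In the fit without WW replicate 4, 7 were lower and 1 higher at an adjusted p under 0.05, against 2.2% and 2.97%. Besides the DEG Kcnv1, the Kv subunits Kcns2 (LFC -0.24, adjusted p = 0.0739) and Kcnh7 (-0.23, adjusted p = 0.085) were lower without overlap and the calcium-activated channel Kcnn2 higher (0.26, adjusted p = 0.072). At the synapse, the calcium sensor Syt1 had LFC -0.16 (adjusted p = 0.078) and the scaffold Lrrc7 -0.20 (adjusted p = 0.0514), and 28 of 40 release genes and 22 of 27 postsynaptic genes were below 0, with medians of -0.037 [-0.043] and -0.040 [-0.018]. Cadherins and protocadherins had 10 of 28 members lower and 2 higher at an unadjusted p under 0.05, median -0.088 [-0.082]. In the fit without WW replicate 4, 6 of them were lower and 0 higher at an adjusted p under 0.05. Next to Pcdh10 and Cdh12, Pcdh7 (LFC -0.18, adjusted p = 0.0539), Fat3 (-0.25, adjusted p = 0.072) and Pcdh11x (-0.18, adjusted p = 0.0819) did not overlap.

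Osmolyte transporters and other NFAT5 targets had a median of 0.14 [0.12], with 9 of 16 genes higher at an unadjusted p under 0.05 against 10.3% of all genes, and 2 DEG, Slc5a3 and Slc38a2. This list too was written with earlier results of these data known. Osmolyte scores did not overlap, at -0.12 to -0.057 in WW and 0.052 to 0.17 in Water-Ethanol. Scores of the cAMP and CREB list, -0.042 to 0.0037 in WW and 0.0073 to 0.032 in Water-Ethanol, did not overlap either. Nor did those of the NRF2 list (0.014 to 0.066 and -0.099 to 0.012) and the Serinc family (-0.10 to -0.041 and 0.026 to 0.11). The largest LFC in the osmolyte list, 0.55, was that of the heat shock gene Hspa1b, which is also in the chaperone list below. The taurine transporter Slc6a6 had LFC 0.18 (adjusted p = 0.129), the creatine transporter Slc6a8 0.13 (adjusted p = 0.144), the betaine and GABA transporter Slc6a12 0.17 (adjusted p = 0.51) and Nfat5 itself 0.14 (adjusted p = 0.255), while the proton/inositol transporter Slc2a13 was lower, -0.12 (adjusted p = 0.12). Glucocorticoid-responsive genes had a median of 0.10 [0.079], with 8 of 24 higher at an unadjusted p under 0.05 and no DEG. Plin4, a lipid droplet protein, was the largest, 0.81 (adjusted p = 0.0935), while the much used marker Fkbp5 had 0.17 (adjusted p = 0.31). Per1, in this list and in those of the clock and of activity, had 0.13 (adjusted p = 0.181).

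Stress chaperones were unequal. The inducible Hsp70 genes Hspa1a and Hspa1b had LFC 0.42 (adjusted p = 0.186) and 0.55 (adjusted p = 0.104), and 0.63 and 0.78 without WW replicate 4. They are near-identical copies whose reads can be exchanged. Bag3 (LFC 0.26, adjusted p = 0.0614) and Dnajb1 (0.21, adjusted p = 0.0747), cochaperones of Hsp70, were higher without overlap, but the list's median was -0.0033 [-0.0012]. Unfolded protein response genes had a median of 0.060 [0.057] and no DEG. Immediate early genes had a median of 0.075 [0.11]. Klf4 had 287, 210.2, 259 and 268 normalized counts in WW and 337, 364, 393 and 325 in Water-Ethanol (LFC 0.47, adjusted p = 0.0539), the kinase Sik1 LFC 0.23 (adjusted p = 0.0819), the activity marker Fos -0.0067 (adjusted p = 0.977) and the neurotrophin Bdnf -0.14 (adjusted p = 0.203), and Klf10 was lower, -0.34 (adjusted p = 0.0625). The clock list had a median of 0.060 [0.067] and no DEG. Without WW replicate 4, 5 clock, 5 chaperone and 4 immediate early genes were higher at an adjusted p under 0.05, against 2.97% of all genes. Lower in that fit were 0, 0 and 1, against 2.2%.

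Enzymes that break down ethanol and acetaldehyde gave no DEG. Of 16 genes tested none passed an unadjusted p of 0.05, and LFC ran from -0.18 to 0.22. The mitochondrial dehydrogenase Aldh1b1 had LFC -0.18 (adjusted p = 0.306) and the alcohol dehydrogenase Adh5, the class III enzyme present in brain, -0.067 (adjusted p = 0.59). Cholesterol synthesis and sterol genes lay slightly low, with 23 of 30 below 0 and a median of -0.051 [-0.069]. At an unadjusted p under 0.05, 8 were lower and 0 higher, against 9.05% and 10.3% of all genes. After Idi1, the pathway's Hmgcs1 (LFC -0.19, adjusted p = 0.0831) and Sqle (-0.12, adjusted p = 0.101) did not overlap between groups. Innate immune genes had LFC of both signs. Next to Cd180, Tlr3 was lower (LFC -0.30, adjusted p = 0.0858) and Traf6 higher (0.22, adjusted p = 0.072), and the interferon factors Stat2 (LFC 0.36, adjusted p = 0.0539), Irf9 (0.35, adjusted p = 0.0819) and Irf3 (0.24, adjusted p = 0.112) were higher without overlap, while the medians of the Toll-like and of the complement and interferon lists were -0.016 [0.0063] and -0.057 [-0.045]. In the list of oxidative stress genes and NRF2 targets, apart from Vnn1, Hmox1 had LFC 0.26 (adjusted p = 0.222) and the median was -0.023 [-0.013].

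Lists of nuclear regulators had small medians. Of 47 histone and DNA modifying enzymes, 38 lay above 0 (median 0.069 [0.055]), with Mbd5 at 0.17 (adjusted p = 0.0539) and Kdm2a at 0.13 (adjusted p = 0.105), both without overlap, and the DEG Hdac9 in the other direction. Of 48 splicing factors, 11 were higher and 5 lower at an unadjusted p under 0.05 (median 0.061 [0.070]), among them Hnrnph1 at 0.18 (adjusted p = 0.086) and Luc7l3 at 0.28 (adjusted p = 0.101). Without WW replicate 4, 8 splicing factors were higher and 1 lower at an adjusted p under 0.05, against 2.97% and 2.2% of all genes. Mediator subunits had a median of 0.030 [0.025] and chromatin remodelers 0.0018 [-0.015], and cAMP and CREB genes 0.039 [0.018]. Wnt and Notch genes had 0.025 [0.0086], with Dvl1 at 0.25 (adjusted p = 0.072). Housekeeping lists stayed near 0. Cytosolic ribosomal proteins (79 genes) had a median of -0.0064 [0.025], oxidative phosphorylation genes (75) -0.026 [-0.013] and proteasome subunits (31) -0.020 [-0.012].

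**Figure D3:**
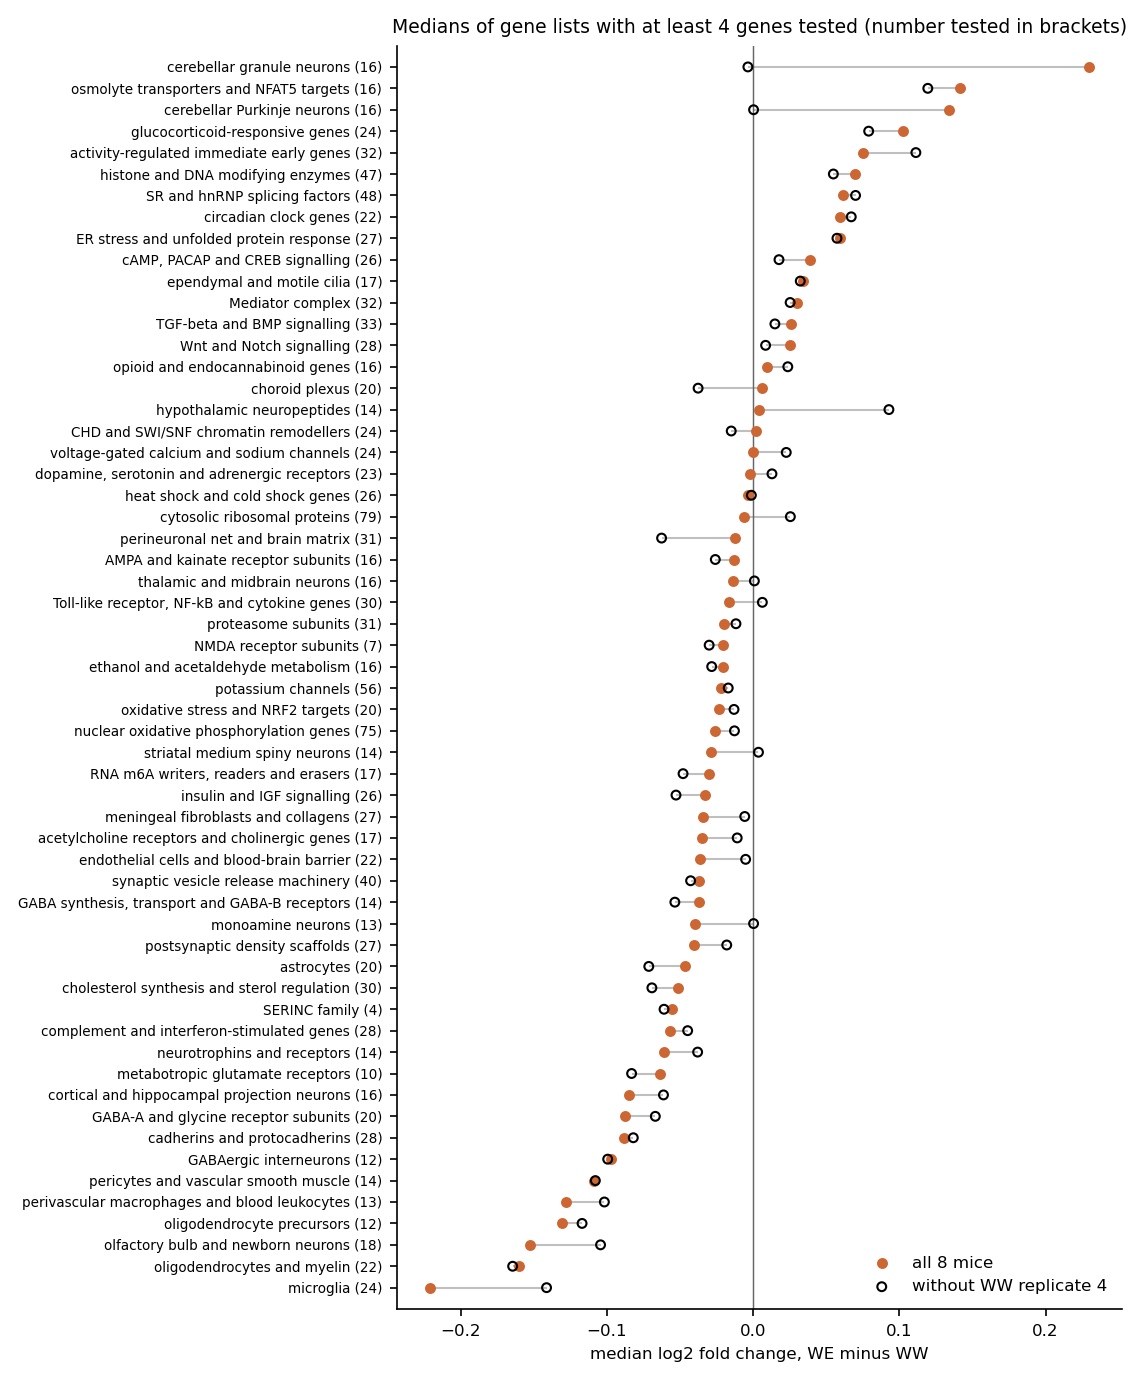
Each line is a gene list with its number of genes tested, and points give the median LFC of Water-Ethanol minus WW with all 8 mice (filled) and without WW replicate 4 (open). Microglia at -0.22 and myelin at -0.16 lie lowest, osmolyte genes stay above 0 in both fits, and the cerebellar lists move to about 0 without that mouse.

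Length and base composition of the DEG were then examined. The DEG that fell had a median genomic span of 63.7 kb and a median transcript GC of 43.2%, and 12 of 28 (42.9%) spanned over 100 kb, as do 14.1% of all genes tested. The DEG that rose had 21.1 kb and 53.6%, against 22.6 kb and 49.8% over all genes. Across quintiles of transcript GC the median LFC of all genes went from -0.040 in the lowest to 0.041 in the highest, and genes lower at an unadjusted p under 0.05 numbered 506 in the lowest and 121 in the highest. Genes higher went the other way, from 148 to 474. In NE against NW the lowest and highest GC quintiles had medians of 0.030 and 0.0012. In the top quintile of genomic span 405 were lower and 266 higher. With the GC trend of each mouse removed, Grin2b, Grm3, Kcnv1, Cadm2, Pcdh10, Tnr and Slc16a1 were among the 11 that still fell, and Mef2c (LFC -0.26 against -0.31, adjusted p = 0.0631), Cdh12 (LFC -0.22 against -0.27, adjusted p = 0.0721), Hapln1 (LFC -0.26 against -0.30, adjusted p = 0.0873), Cacna2d1 (LFC -0.17 against -0.21, adjusted p = 0.0721), Cd180 (LFC -1.19 against -1.20, adjusted p = 0.0568) and P2ry13 (LFC -0.60 against -0.62, adjusted p = 0.0568) were among those that no longer passed edgeR's test. The list medians of microglia, myelin and osmolyte genes were -0.24, -0.18 and 0.14 after that removal. The part of the GC trend in the other results was not tested.

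**Figure D4:**
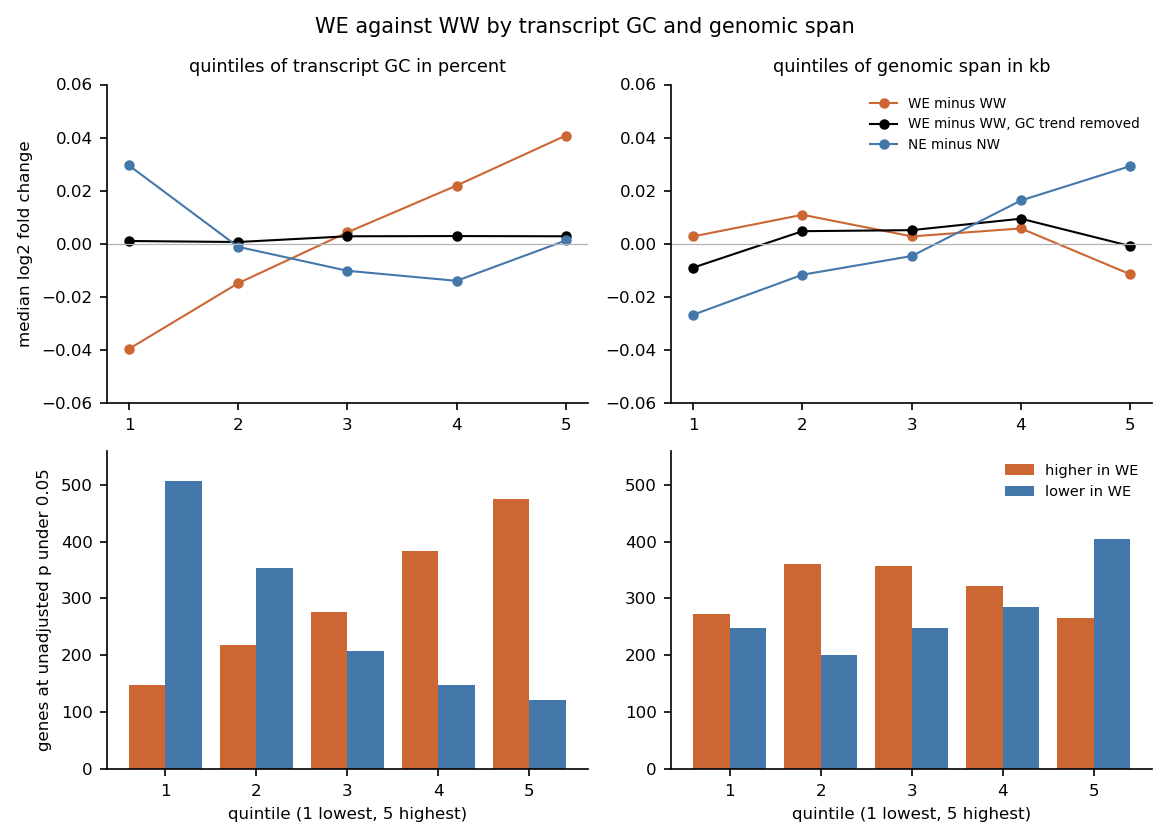
Upper panels give the median LFC by quintile of transcript GC (left) and of genomic span (right) for Water-Ethanol minus WW, for Water-Ethanol minus WW with the GC trend of each mouse removed, and for NE minus NW. Lower panels count genes at an unadjusted p under 0.05, higher (orange) and lower (blue) in Water-Ethanol. Medians climb from -0.040 to 0.041 with GC in Water-Ethanol minus WW.

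The same ethanol contrast was then read in mice that had nicotine, NE against NW. There no gene passed adjustment in edgeR's test (15361 tested, smallest adjusted p = 0.134), 93 passed in DESeq2, and at an unadjusted p under 0.05 1071 genes were higher (6.97%) and 759 lower (4.94%). Rn45s took 0.414% to 3.90% of counts in NW, against 0.318% to 0.444% in NE, and its part in the following values was not tested. Across 15243 genes tested in both, which are not independent, the LFC correlated with r = 0.319 (rho = 0.355), and 64.1% had the same sign.

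Genes that rose with ethanol in Water-Ethanol kept their direction in the nicotine mice. All 42 of 42 were above 0 in NE against NW, 26 of them at an unadjusted p under 0.05, with a median LFC of 0.23 against 0.34 in Water-Ethanol. Of all genes above 0 in Water-Ethanol against WW, 64.7% were above 0 in NE against NW. Among those higher at an unadjusted p under 0.05 in Water-Ethanol, 84.4% were. Without NE replicate 1, 40 of the 42 DEG were above 0 there, and without NW replicate 2, 41. Slc38a2 had 5861, 6051, 9327 and 9197 normalized counts in NW and 11765, 10636, 12446 and 9214 in NE, LFC 0.53 ± 0.148 (SE, unadjusted p = 0.00335). Slc5a3 had LFC 0.48 ± 0.118 (SE, unadjusted p = 0.00147), Tgfb3 0.39 ± 0.0634 (SE, unadjusted p = 4.06e-05), Kcnj13 0.52 ± 0.0851 (SE, unadjusted p = 4.57e-05), Chd2 0.30 ± 0.0457 (SE, unadjusted p = 2.08e-05) and Serinc2 0.42 ± 0.085 (SE, unadjusted p = 0.000316). Genes that fell were divided. Of 27 tested in NE against NW, 15 were below 0, 6 of them at an unadjusted p under 0.05, and the median of the 27 was -0.0088 against -0.27. The 6 were Cd180, Hist1h1c, P2ry13, Gamt, Grm3 and Actb. Of all genes below 0 in Water-Ethanol against WW, 63.6% were below 0 in NE against NW. Among those lower at an unadjusted p under 0.05 in Water-Ethanol, 66.6% were. The division moved with single mice of both groups, most with NW replicate 1. Without NW replicate 1, 66 of 69 DEG had the same sign in both contrasts, all 42 that rose among them, against 57 with it. Without NE replicate 4 or 2 the number was 64 or 62, and without NE replicate 1 or 3 it was 53. NW replicate 1 had 7557 normalized counts of Cadm2 against 10172 to 10774 in the other NW mice, and 5965 of Pcdh10 against 7043 to 7473. Cd180 had 58.8, 50.4, 49.2 and 61 in NW and 13.4, 31.1, 28.2 and 35.8 in NE, LFC -1.03 ± 0.237 (SE, unadjusted p = 0.000842), and P2ry13 had LFC -0.35 ± 0.124 (SE, unadjusted p = 0.015). Several neuronal genes were above 0 there. Grin2b had 2782, 4010.1, 3555 and 3386 in NW and 3033, 3975, 3474 and 3874 in NE, LFC 0.063 ± 0.104 (SE, unadjusted p = 0.551), Cadm2 LFC 0.18 ± 0.0907 (SE, unadjusted p = 0.0766), Pcdh10 0.021 ± 0.0644 (SE, unadjusted p = 0.745) and Tnr 0.0040 ± 0.0472 (SE, unadjusted p = 0.935).

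The difference between the ethanol effects without and with nicotine was tested in a fit of all 16 mice. In edgeR's test no gene passed adjustment (15592 tested, smallest adjusted p = 0.577), DESeq2 called 1, the small nucleolar RNA Snord15b, and 1054 (6.76%) passed in edgeR at an unadjusted p under 0.05. Of the DEG tested in both, 17 of 27 that fell and 4 of 42 that rose were among these. The DEG were chosen by the Water-Ethanol against WW effect, which is part of this difference. Their counts therefore cannot be read against the 6.76% of all genes. The signs of DEG that fell also depended on single NW and NE mice, and the higher ethanol intake reported for NE mice cannot be told apart from nicotine here. For Cadm2 the difference of LFC was -0.47 (adjusted p = 0.577), for Grin2b -0.48 (0.651) and for Cd180 -0.18 (0.957), so that for none of these was a difference between the effects shown.

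Several lists kept their side of 0 in the nicotine mice. Microglial genes were below 0 in 21 of 24 (median -0.15), with 11 lower at an unadjusted p under 0.05 against 4.94% of all genes. Myelin genes were below 0 in 20 of 22 (median -0.068) and pericyte genes in 13 of 14 (median -0.10). Osmolyte genes were above 0 in 13 of 16 (median 0.10). Immediate early genes were above 0 in 29 of 32 (median 0.17), while in Water-Ethanol against WW 19 were above and 13 below 0. The paper reported lower Arc, Fos and Nr4a1 in NW than in WW mice, and the part of this in the list's median was not tested. Other lists did not. GABA-A and glycine receptor subunits were above 0 in 16 of 20 (median 0.033) and cadherins in 19 of 28 (median 0.038). Housekeeping lists, near 0 in Water-Ethanol, were low in the nicotine mice. Cytosolic ribosomal protein genes were below 0 in 76 of 78 (median -0.10), oxidative phosphorylation genes in 73 of 75 (-0.071) and proteasome subunits in 31 of 31 (-0.072). The myelin median was not lower than those of these housekeeping lists. These differences between lists were not tested.

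**Figure D5:**
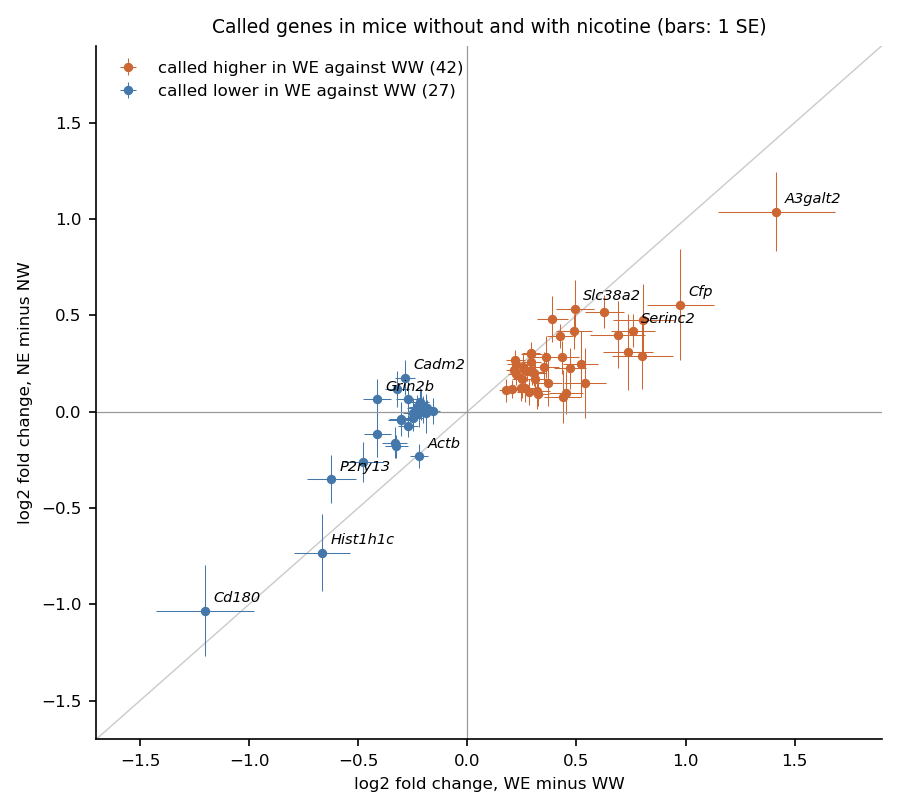
Each point is a DEG of Water-Ethanol against WW that was also tested in NE against NW, with its LFC in Water-Ethanol minus WW on the x axis, its LFC in NE minus NW on the y axis and 1 SE on each, and the diagonal marks equality. The 42 genes that rose (orange) all lie above 0 on the y axis, and those that fell (blue) lie around 0 except a few such as Cd180, Hist1h1c and P2ry13. All NW and NE mice are included, and with 1 of them left out between 53 and 66 of 69 DEG had the same sign in both contrasts.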

How the data were processed

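RNA from 16 whole brains was sequenced as single-end reads. The authors deposited raw read counts per gene for each mouse and FPKM values, after trimming with Trimmomatic 0.32, alignment with TopHat2 to GRCm38 and, for FPKM, the Cufflinks tools (conversion with bcl2fastq 1.8.4). The program that made the counts and whether it used strand are not given in the sources used here, so overlapping and antisense genes may share reads. Depth was 27100352 to 32880979 counts per mouse.

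Counts were tested with edgeR 4.0.16 (TMM factors, filterByExpr with a minimum count of 10, quasi-likelihood test, Benjamini-Hochberg adjusted p under 0.05) in R 4.3.3, on the 4 Water-Ethanol and 4 WW mice for the main contrast, the 4 NE and 4 NW mice for the same contrast with nicotine and all 16 for the difference. The SE was the LFC divided by the square root of F. Normalized counts are counts divided by the effective library size and multiplied by its mean. Alternatives used DESeq2 1.42.0, limma 3.58.1 on log2(FPKM + 1), other factors and filters, leaving out each mouse, a granule neuron covariate and a lowess trend of GC (span 0.3) removed per mouse, for 14589 genes with a GC value (95.2%). The scripts were tested on simulated data. List scores are means of centered log2 CPM over the genes tested. Promoters from RefSeq GRCm38.p6 matched 11116 of 15323 genes, within 1000 bases of the start in the count table.

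Genes are named if they were DEG, or were among the first 4 or the 5 smallest p-values of a list, or did not overlap between groups at an unadjusted p under 0.05. A few genes that meet this rule, 1 of them a DEG, are not reported here. Members and lists were chosen with earlier results of these data known. Figures were drawn with matplotlib 3.10.9 in Python 3.11.15.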

Additional observations from a re-analysis of the deposited data

Results flagged for a closer look

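In 25 of 430 groups of 4 mice (5.81%), over the genes named and the list scores, 1 mouse lay so far from the others that its gap to the nearest, divided by the range of the group, exceeded Dixon's critical value. Chance flags about 1 in 20 groups. Water-Ethanol replicate 2 lay away from its group in C1d (1033 normalized counts against 992 to 998, ratio 0.864) and Bag3 (479 normalized counts against 513 to 518, ratio 0.862). Water-Ethanol replicate 3 lay away from its group in Pagr1a (1862 normalized counts against 1521 to 1558, ratio 0.891), Slc38a2 (14353 normalized counts against 10839 to 11292, ratio 0.871), Slc5a3 (4023 normalized counts against 3064 to 3219, ratio 0.838), Vtn (1520.2 normalized counts against 1740.5 to 1779, ratio 0.851), the GABAergic interneurons score (-0.091 against -0.010 to -0.0073, ratio 0.964), the choroid plexus score (-0.070 against 0.065 to 0.085, ratio 0.868) and the hemoglobin and red cells score (-0.16 against 0.035 to 0.044, ratio 0.956). WW replicate 1 lay away from its group in Sema6c (629 normalized counts against 549 to 558, ratio 0.886), Pan3 (1540.3 normalized counts against 1358 to 1369, ratio 0.94), Igf1r (3699 normalized counts against 3337 to 3357, ratio 0.944), Kcns2 (1200.2 normalized counts against 1089 to 1094, ratio 0.95), Nfat5 (5246 normalized counts against 4512 to 4632, ratio 0.836), the glucocorticoid-responsive genes score (0.0063 against -0.10 to -0.089, ratio 0.937) and the nuclear oxidative phosphorylation genes score (-0.0074 against 0.017 to 0.021, ratio 0.866). WW replicate 2 lay away from its group in Sp8 (313 normalized counts against 350.4 to 358, ratio 0.835). WW replicate 4 lay away from its group in Grin2b (3023 normalized counts against 3625 to 3712, ratio 0.873), Hspa1b (416 normalized counts against 234 to 258, ratio 0.866), Id2 (2814 normalized counts against 3125 to 3178, ratio 0.853), Pdgfrb (952 normalized counts against 1015 to 1019.7, ratio 0.933), the cerebellar Purkinje neurons score (-0.78 against 0.032 to 0.17, ratio 0.856), the cerebellar granule neurons score (-0.94 against 0.021 to 0.19, ratio 0.85), the metabotropic glutamate receptors score (-0.19 against 0.065 to 0.11, ratio 0.863) and the perineuronal net and brain matrix score (-0.087 against 0.048 to 0.071, ratio 0.856).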

How the results depend on the processing

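The number of DEG between Water-Ethanol and WW, 70, was the result most open to processing. It was 121 with upper-quartile factors, 143 without a filter on low counts, 620 with edgeR's likelihood-ratio test, 606 with DESeq2, 607 with the granule neuron score as a covariate, 40 with the GC trend removed and 28 with all 16 mice in the fit. It was 0 with limma on FPKM, with a pseudocount of 1, of 0.1 or without a filter, where 2629, 2620 and 3043 genes had an unadjusted p under 0.05. With 1 mouse left out it ran from 0 to 797, the highest without WW replicate 4, and with that mouse left out and the GC trend removed, chosen after seeing the data, it was 490. The cause was not tested. The interaction called 1 gene with DESeq2 and 1 with the granule score, and 0 in the other fits. DEG with the same sign in NE against NW numbered between 53 and 66 of those tested in both, the highest without NW replicate 1. No called gene changed sign. Among genes near 0, Serinc3 turned to 0.0050 with the granule score, 0.033 with the GC trend removed, 0.0036 with limma on FPKM (0.0036 with the smaller pseudocount) and 0.044 without WW replicate 4 and the GC trend. With 1 mouse left out the LFC of Serinc3 ran from -0.031 to 0.017, of Fos from -0.063 to 0.047 and of Grin1 from -0.043 to 0.011. Over all named genes and fits, 738 LFC lost and 166 gained significance, and 2171 kept their direction and side of the threshold. Medians of lists moved by more than the replicate spread in 32 of 1200 fits. No paired analysis was possible because the labels give no replicate number that pairs mice of different groups.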

Other observations

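Insulin and IGF signaling genes, a list not described above, held 3 of 26 members higher and 0 lower in Water-Ethanol at an unadjusted p under 0.05, against 10.3% and 9.05% of all genes, with a median LFC of -0.033 and no DEG, so the count higher was near the share of all genes. In this list 16 of 26 genes lay below 0. The 3 that were higher were the IGF-1 receptor Igf1r (LFC 0.17, adjusted p = 0.12) and both main adaptor proteins below it and the insulin receptor, Irs1 (0.17, adjusted p = 0.15) and Irs2 (0.21, adjusted p = 0.13). Irs2 had 1571, 1578, 1642 and 1377 normalized counts in WW and 1689, 1619, 1866 and 1969 in Water-Ethanol. In NE against NW the LFC of Igf1r, Irs1 and Irs2 were 0.22, 0.24 and 0.30.

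Genes of neurotrophins and their receptors had 3 of 14 members lower at an unadjusted p under 0.05, against 9.05% of all genes (median -0.061). No gene of 16 for thalamic and midbrain neurons passed an unadjusted p of 0.05, and of 14 hypothalamic neuropeptide genes 1 did. Writers, readers and erasers of RNA m6A had 13 of 17 members below 0 (median -0.030), with the reader Ythdf3 at -0.12 (adjusted p = 0.113) and the demethylase Alkbh5 at 0.11 (adjusted p = 0.13).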
